A study of Mus musculus with 16 samples.

Results

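The BCL2 family of apoptosis regulators was described here through 9 genes, Bcl2, Bcl2l1, Mcl1, Bax, Bak1, Bcl2l11, Bmf, Bid and Bad. They were chosen by symbol, as family members, from the 27179 entries of the deposited gene table. All 9 were found, and all 9 were among the 14005 genes tested. The cells were PDGFRb+ stromal cells sorted by flow cytometry out of inguinal white fat of C57BL/6 mice and grown in medium with 10% serum. They were split by the surface peptidase DPP4 into DPP4_pos and DPP4_neg adipose progenitors, called APCs in the labels. The 4 groups were DPP4_pos APCs given isoproterenol, DPP4_pos APCs given PBS vehicle, DPP4_neg APCs given isoproterenol and DPP4_neg APCs given PBS vehicle, with 4 libraries each. Isoproterenol, an agonist of beta-adrenergic receptors, was given for 4 h at a dose the labels state as 10 mM, whereas micromolar doses are usual in culture. The labels name no transgene or deletion for any group, and age is not given in the sources used here. No label says whether the 4 libraries of a group came from separate animals or cultures, so every p-value rests on library-to-library spread alone, which may be technical. The question set by the design is how a beta-adrenergic stimulus acts on each population and whether the populations respond alike.

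BCL2 family proteins decide whether the outer membrane of the mitochondrion stays intact. The survival members BCL2, BCL-XL (the product of Bcl2l1) and MCL1 hold in check the effectors BAX and BAK, which otherwise open pores and release cytochrome c. The BH3-only members BIM (Bcl2l11), BMF, BID and BAD carry stress signals to this system, by engaging the effectors or by occupying the survival proteins. MCL1 is short-lived, so its amount follows its synthesis closely, and Bcl2l11 is a textbook target of forkhead factors. Transcript levels say nothing of the phosphorylation, cleavage or turnover that also control these proteins.

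The promoter sequences of the members with the largest responses are shown because isoproterenol acts through cAMP, whose nuclear factor CREB binds TGACGTCA and its core letters TGACG. The windows are from RefSeq on GRCm38.p6. They cover 250 bases before to 50 bases after each start, with 15 windows for the 9 members. Capitals mark letters found by search on both strands, and every line runs 5' to 3'. One search was for TGACG, which reads CGTCA on the opposite strand. The other was for the forkhead letters TGTTTAC, which read GTAAACA on the opposite strand. The first line is the 250 bases before the most upstream Bmf start at chr2:118549687-118549936, minus strand. The second is the 250 bases before the Bcl2 start at chr1:106714291-106714540, minus strand. The third is the 250 bases before the Bcl2l11 start at chr2:128125788-128126037, plus strand. The last is 30 bases just after the start of the single Mcl1 window, at chr3:95658725-95658754, plus strand, and this start lies inside the Mcl1 locus given at the end.
Bmf: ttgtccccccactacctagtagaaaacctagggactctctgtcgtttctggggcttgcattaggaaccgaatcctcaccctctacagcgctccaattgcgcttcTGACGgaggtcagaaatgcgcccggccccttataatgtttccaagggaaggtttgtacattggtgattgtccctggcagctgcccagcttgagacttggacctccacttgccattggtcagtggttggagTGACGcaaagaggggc
Bcl2: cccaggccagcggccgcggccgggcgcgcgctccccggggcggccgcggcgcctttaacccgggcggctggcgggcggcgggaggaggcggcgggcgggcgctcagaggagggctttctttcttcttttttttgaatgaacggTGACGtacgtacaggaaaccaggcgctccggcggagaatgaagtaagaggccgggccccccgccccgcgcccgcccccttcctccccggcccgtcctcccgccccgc
Bcl2l11: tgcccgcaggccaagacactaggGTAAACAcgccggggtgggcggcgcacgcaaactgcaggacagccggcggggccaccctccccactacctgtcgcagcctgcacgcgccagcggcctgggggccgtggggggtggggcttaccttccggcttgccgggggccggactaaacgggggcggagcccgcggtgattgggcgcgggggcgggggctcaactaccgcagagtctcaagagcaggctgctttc
Mcl1 site: agtcctcgcctgCGTCAgcacggccctaag
The full TGACGTCA was in none of the 15 windows of the members and in 1.79% of the 32851 windows of all genes. The shorter TGACG was in 20.8% of all windows. In Bmf it stood 146 and 16 bases upstream of the start, in Bcl2 it stood 107 bases upstream, and in Mcl1 the reverse letters stood 17 bases downstream. The forkhead letters were in 3.65% of all windows and stood 227 bases upstream of the Bcl2l11 start. The short letters were thus in 3 of the 15 windows of the members, a share near that of all windows. These matches are a description of letters and not of bound sites.

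Values below are normalized counts, that is, reads per gene divided by a library size factor by the authors. Libraries held 9823799 to 16563940 reads in genes in DPP4_pos isoproterenol, 17189166 to 20425332 in DPP4_pos vehicle, 10191846 to 22121496 in DPP4_neg isoproterenol and 16479650 to 28627223 in DPP4_neg vehicle. The label check held, since Dpp4 averaged 2223 ± 97.7 and 3053 ± 186 in DPP4_pos isoproterenol and vehicle libraries, and 9.89 ± 2.29 and 21.1 ± 4.16 in DPP4_neg isoproterenol and vehicle libraries (SD, n = 4 each). Crem, a gene induced by cAMP, averaged 5532 ± 150 against 128.0 ± 4.82 in DPP4_pos isoproterenol and vehicle libraries, and 3169 ± 203 against 127.9 ± 12.5 in DPP4_neg isoproterenol and vehicle libraries. Every one of 7 progenitor markers was detected. They summed to 182959 to 188657 against 231364 to 239160 in DPP4_pos isoproterenol and vehicle libraries. In DPP4_neg isoproterenol and vehicle libraries they summed to 191030 to 216011 against 195554 to 203721. Most of the progenitor sum was Col1a1, which averaged 128940 over the 16 libraries. Markers of other cells and of the populations themselves also moved. The summed level of 10 of 10 macrophage and leukocyte markers, none at 0 in any whole group, was 674 to 1858 against 585 to 1378 in DPP4_pos isoproterenol and vehicle libraries, and 745 to 1947 against 440 to 1010 in DPP4_neg isoproterenol and vehicle libraries. The 4 mature adipocyte markers summed to 1204 to 1302 against 4592 to 5064 in DPP4_pos isoproterenol and vehicle libraries, and to 3394 to 3992 against 10940 to 12175 in DPP4_neg isoproterenol and vehicle libraries, and 1 of them, Lep, was at 0 in every isoproterenol library. The 6 mural markers summed to 849 to 971 against 749 to 883 in DPP4_pos isoproterenol and vehicle libraries, and to 4953 to 5334 against 7069 to 7342 in DPP4_neg isoproterenol and vehicle libraries. The 7 endothelial markers summed to 1156 to 1288 against 1107 to 1168 in DPP4_pos isoproterenol and vehicle libraries, and to 171 to 213 against 163 to 201 in DPP4_neg isoproterenol and vehicle libraries. Tek and Kdr, which averaged 400 and 215 over the 16 libraries, made up most of that sum. Pecam1, Cdh5, Vwf, Emcn and Tie1 each averaged at most 27.3. The 4 mesothelial markers summed to 124 to 190 against 116 to 170 in DPP4_pos isoproterenol and vehicle libraries, and to 1225 to 1714 against 620 to 777 in DPP4_neg isoproterenol and vehicle libraries. Most of that sum was Krt19, which averaged 596 over the 16 libraries, while Msln, at 0 in every DPP4_pos isoproterenol library, and Upk3b averaged at most 0.690. The 4 skeletal muscle markers summed to 25.8 to 31.9 against 68.2 to 88.4 in DPP4_pos isoproterenol and vehicle libraries, and to 320 to 466 against 704 to 933 in DPP4_neg isoproterenol and vehicle libraries. Most of that sum was Acta1, which averaged 316, while Ckm was at 0 in every library and Myh4 at 0 in every isoproterenol library. The 4 epithelial markers summed to at most 3.48 against 3.58 in DPP4_pos isoproterenol and vehicle libraries, and to at most 105 against 62.3 in DPP4_neg isoproterenol and vehicle libraries. The 5 markers of the DPP4+ interstitial population, all detected, summed to 45212 to 49500 against 4764 to 5290 in DPP4_pos isoproterenol and vehicle libraries, and to 7486 to 7865 against 449 to 484 in DPP4_neg isoproterenol and vehicle libraries. Most of that sum was Cd55 and Pi16, which averaged 6234 and 5847 over the 16 libraries. Dpp4, also among the 5, went the other way, with lower means under isoproterenol in both populations as given above. The part of these markers in the changes below was not tested, and in bulk RNA fewer cells of a type cannot be told apart from less RNA per cell.

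**Figure D1:**
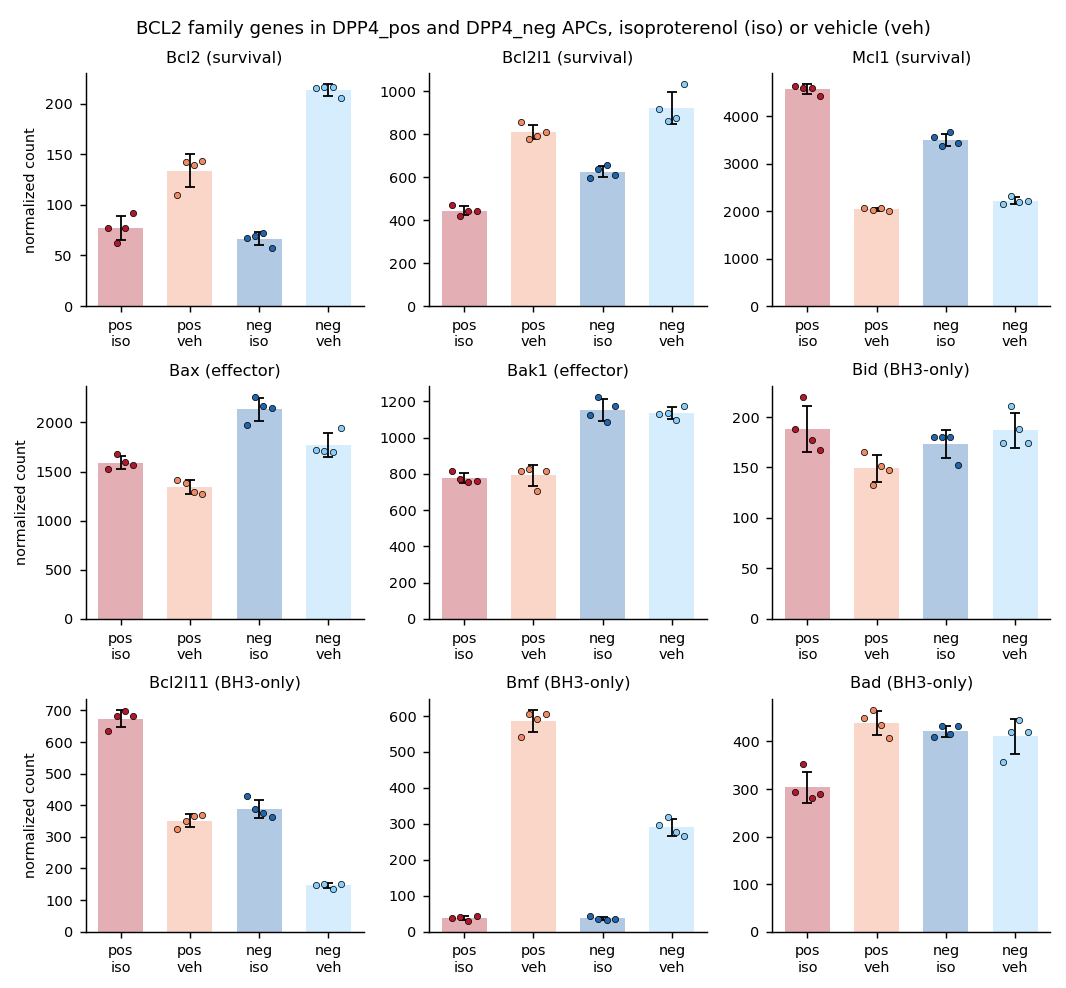
Normalized counts of the 9 members in each of the 16 libraries, 1 panel per gene, with groups on the horizontal axis, a point per library and bars for the mean with SD (n = 4), where pos and neg stand for DPP4_pos and DPP4_neg, iso for isoproterenol and veh for vehicle. Bmf lay at 29.2 to 43.2 in the DPP4_pos isoproterenol libraries against 540 to 605 in the DPP4_pos vehicle libraries, and Bak1 was lower in DPP4_pos than in DPP4_neg libraries under either treatment.

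After isoproterenol the survival genes split in direction, and so did the BH3-only genes. Among the survival genes Mcl1 rose while Bcl2 and Bcl2l1 fell, and among BH3-only genes Bcl2l11 rose while Bmf fell, in both populations. In DPP4_pos APCs 8 of the 9 members passed an adjusted p of 0.05 in limma, 4 higher and 4 lower. This stands beside a background of 82.7% of all genes tested called, 39.4% higher and 43.3% lower. In DPP4_neg APCs 6 of the 9 passed, 3 higher and 3 lower, beside 65.7% of all genes, 32.1% higher and 33.6% lower. The number of members called was therefore near the background in both populations. The median absolute log2 change of the members was 0.78 in DPP4_pos and 0.55 in DPP4_neg APCs, and over all genes tested it was 0.61 and 0.32.

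A call with at least a 2-fold change was reached by 2 members in DPP4_pos APCs, Mcl1 and Bmf, beside 30.7% of all genes, and by 3 in DPP4_neg APCs, Bcl2, Bcl2l11 and Bmf, beside 15.3% of all genes. The isoproterenol and vehicle libraries did not overlap for 8 members in DPP4_pos APCs, beside 77.8% of all genes, and for 6 members in DPP4_neg APCs, beside 58.9%. Scaling to library totals, an alternative added after the data were seen, moved the median log2 change of all genes by -0.27 in DPP4_pos and by -0.01 in DPP4_neg APCs. With it the share of calls that were higher was 33.0% in DPP4_pos APCs, against 47.6% with the authors' size factors, and 2 members were called higher and 5 lower there. Quantile normalization gave 3 members higher and 5 lower in DPP4_pos APCs. Which members reached 2-fold in DPP4_pos APCs also depended on the setting. Over the settings other than leaving out 1 library, the log2 change of Mcl1 went down to 0.81, under 2-fold. Those of Bcl2l1 and Bcl2 reached -1.14 and -1.05, past 2-fold.

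Bmf, whose protein is tethered to the cytoskeleton until stress frees it, made the largest response of the family. Its DPP4_pos isoproterenol libraries held 39.3, 41.8, 29.2 and 43.2 normalized counts, and its DPP4_pos vehicle libraries held 540, 605, 593 and 605. Its DPP4_neg isoproterenol libraries held 44.5, 35.2, 31.5 and 35.4 normalized counts, and its DPP4_neg vehicle libraries held 297, 318, 278 and 265. Every isoproterenol library lay far under every vehicle library, and under isoproterenol the populations overlapped. The fall was 15.0-fold in DPP4_pos APCs (log2 change -3.91 ± 0.12 SE, limma adjusted p = 4.94e-18) and 7.76-fold in DPP4_neg APCs (log2 change -2.96 ± 0.12 SE, adjusted p = 1.76e-15). Few reads stood behind the low values, 20 to 35 per library in DPP4_pos isoproterenol and 20 to 55 in DPP4_neg isoproterenol. By the size of its log2 change Bmf stood at percentile 98.6 of all genes tested in DPP4_pos and at percentile 98.2 in DPP4_neg APCs. No other member stood above percentile 74.6 in DPP4_pos APCs (Mcl1) or above percentile 93.2 in DPP4_neg APCs (Bcl2).

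Bcl2l11, which encodes BIM, a BH3-only protein that binds all the survival members, rose in both populations. Its DPP4_pos isoproterenol libraries held 636, 681, 697 and 684 normalized counts, and its DPP4_pos vehicle libraries held 324, 350, 365 and 368. Its DPP4_neg isoproterenol libraries held 430, 387, 377 and 362 normalized counts, and its DPP4_neg vehicle libraries held 149, 150, 136 and 151. All isoproterenol libraries lay above the vehicle libraries of their own population, and the highest DPP4_pos vehicle library reached above the lowest DPP4_neg isoproterenol library. The rise was 1.92-fold in DPP4_pos APCs (log2 change 0.94 ± 0.06 SE, limma adjusted p = 7.28e-12) and 2.65-fold in DPP4_neg APCs (log2 change 1.40 ± 0.06 SE, adjusted p = 1.44e-14).

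Of the survival genes among the members, only Mcl1 rose. Its DPP4_pos isoproterenol libraries held 4646, 4605, 4606 and 4423 normalized counts, and its DPP4_pos vehicle libraries held 2076, 2030, 2060 and 1998. Its DPP4_neg isoproterenol libraries held 3556, 3384, 3660 and 3427 normalized counts, and its DPP4_neg vehicle libraries held 2145, 2314, 2191 and 2221. The isoproterenol libraries stood clear of the vehicle libraries, and DPP4_pos stood highest under isoproterenol and lowest under vehicle. The rise was 2.24-fold in DPP4_pos APCs (log2 change 1.16 ± 0.03 SE, limma adjusted p = 1.99e-18) and 1.58-fold in DPP4_neg APCs (log2 change 0.66 ± 0.03 SE, adjusted p = 1.15e-13). Over the settings other than leaving out 1 library, the DPP4_pos log2 change of Mcl1 ran from 0.81 to 1.16 and was always called.

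Bcl2, the founding survival gene of the family, fell in both populations. Its DPP4_pos isoproterenol libraries held 77.5, 62.7, 77.5 and 92.1 normalized counts, and its DPP4_pos vehicle libraries held 109, 143, 139 and 144. Its DPP4_neg isoproterenol libraries held 67.2, 69.0, 72.6 and 57.8 normalized counts, and its DPP4_neg vehicle libraries held 216, 216, 216 and 205. No isoproterenol library reached a vehicle library, and the DPP4_neg vehicle group stood highest of the 4. The fall was 1.72-fold in DPP4_pos APCs (log2 change -0.78 ± 0.12 SE, limma adjusted p = 2.19e-06) and 3.18-fold in DPP4_neg APCs (log2 change -1.67 ± 0.12 SE, adjusted p = 2.82e-11). After quantile normalization the DPP4_pos log2 change was -0.34 (adjusted p = 0.0104).

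Bcl2l1, whose main product BCL-XL is a survival protein that restrains BAX and BAK, fell in both populations. Its DPP4_pos isoproterenol libraries held 471, 418, 440 and 443 normalized counts, and its DPP4_pos vehicle libraries held 857, 779, 793 and 808. Its DPP4_neg isoproterenol libraries held 597, 639, 655 and 612 normalized counts, and its DPP4_neg vehicle libraries held 916, 863, 875 and 1031. The groups of either population did not overlap. The fall was 1.82-fold in DPP4_pos APCs (log2 change -0.87 ± 0.06 SE, limma adjusted p = 2.82e-12) and 1.47-fold in DPP4_neg APCs (log2 change -0.55 ± 0.06 SE, adjusted p = 1.22e-08).

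The effector genes had small changes. Bax held 1526 to 1681 against 1274 to 1418 normalized counts in DPP4_pos isoproterenol and vehicle libraries, and 1977 to 2255 against 1701 to 1946 in DPP4_neg isoproterenol and vehicle libraries. It rose 1.19-fold in DPP4_pos APCs (log2 change 0.25 ± 0.05 SE, limma adjusted p = 0.000113) and 1.21-fold in DPP4_neg APCs (log2 change 0.27 ± 0.05 SE, adjusted p = 6.08e-05). The DPP4_pos call depended on scaling, with a log2 change of -0.0046 (adjusted p = 0.937) after quantile normalization and of -0.03 (adjusted p = 0.641) after scaling to library totals. Bak1, the effector anchored at the mitochondrion, held 756 to 815 against 705 to 829 normalized counts in DPP4_pos isoproterenol and vehicle libraries, and 1087 to 1222 against 1097 to 1173 in DPP4_neg isoproterenol and vehicle libraries. Its groups overlapped and it passed the test in neither population. The 95% interval of its log2 change ran from -0.13 to 0.08 in DPP4_pos and from -0.08 to 0.13 in DPP4_neg APCs. After quantile normalization and after scaling to library totals its DPP4_pos log2 change was -0.16 and -0.30, both called (adjusted p = 0.00665 and 9.73e-06).

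The remaining BH3-only genes passed the test in DPP4_pos APCs but not in DPP4_neg APCs. Bad, whose protein is kept inactive by phosphorylation downstream of growth factors and protein kinase A, held 281 to 352 against 406 to 466 normalized counts in DPP4_pos isoproterenol and vehicle libraries, and 409 to 432 against 357 to 445 in DPP4_neg isoproterenol and vehicle libraries. It fell 1.45-fold in DPP4_pos APCs (log2 change -0.53 ± 0.07 SE, limma adjusted p = 8.09e-07), and its log2 change in DPP4_neg APCs was 0.04 with a 95% interval from -0.11 to 0.20. Gpr137, a gene on the opposite strand that shares 20.5% of the exon bases of Bad, had log2 changes of -0.46 in DPP4_pos and -0.06 in DPP4_neg APCs, and the reads of the pair cannot be told apart where strand was not kept. Bid, whose protein is cleaved by caspase 8 and links death receptors to mitochondria, held 167 to 220 against 133 to 165 normalized counts in DPP4_pos isoproterenol and vehicle libraries, and 152 to 180 against 174 to 211 in DPP4_neg isoproterenol and vehicle libraries. It rose 1.26-fold in DPP4_pos APCs (log2 change 0.33 ± 0.10 SE, adjusted p = 0.00366), and its log2 change in DPP4_neg APCs was -0.11 with a 95% interval from -0.31 to 0.09. Scaling to library totals ended the DPP4_pos call of Bid (log2 change 0.06, adjusted p = 0.594), while quantile normalization gave 0.64 for it. With library totals the DPP4_pos log2 change of Bad was -0.81. Bid shares 17.7% of its exon bases with Bcl2l13, on the opposite strand, which had log2 changes of 0.05 in DPP4_pos and 0.11 in DPP4_neg APCs. Bak1 shares 25.5% with Ggnbp1, which averaged only 15.1 normalized counts. Bax shares 12.2% with Gm45808, a protein-coding gene on the same strand with no entry of that symbol among the deposited genes. Its part in the Bax counts was not tested.

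**Figure D2:**
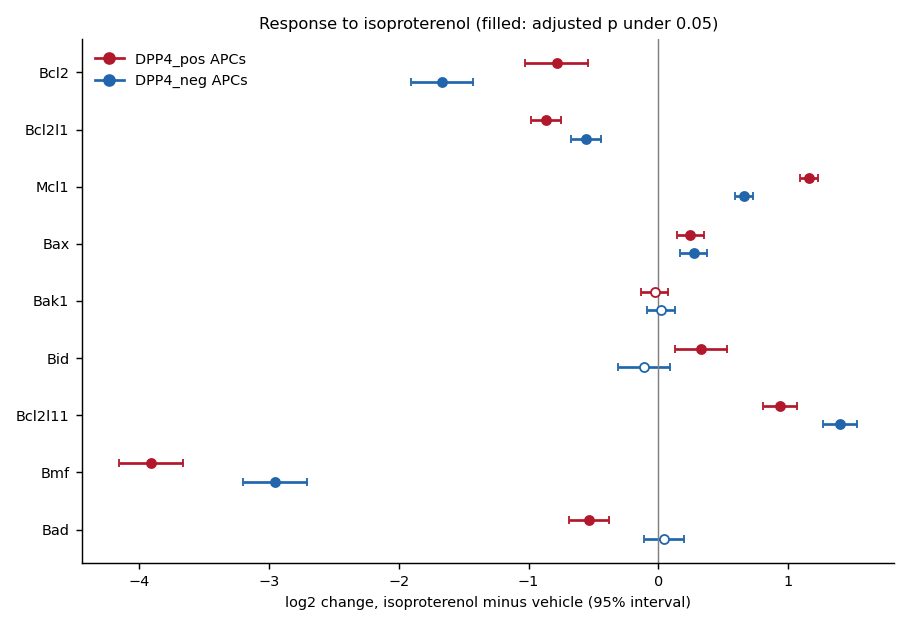
Log2 change with isoproterenol for the 9 members, DPP4_pos beside DPP4_neg, with points for the estimate and bars for the 95% interval from limma. Bmf reached -3.91 in DPP4_pos and -2.96 in DPP4_neg APCs, and Bcl2 fell further in DPP4_neg APCs.

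The responses of the populations were then compared gene by gene, as the DPP4_pos log2 response minus the DPP4_neg log2 response. The difference passed the test for 7 of the 9 members, 3 higher and 4 lower, beside 62.6% of all genes, 31.6% higher and 31.0% lower. With library totals, which shifted the median of all genes by -0.26, the share of calls that were higher was 27.2% against 50.5% with size factors, and 2 members were then higher and 6 lower. Mcl1 rose more in DPP4_pos APCs (difference 0.50 ± 0.05 SE, limma adjusted p = 7.48e-09), and Bcl2l11 rose less there (-0.47 ± 0.09 SE, adjusted p = 0.000118). Bmf fell further in DPP4_pos APCs (-0.95 ± 0.17 SE, adjusted p = 4.16e-05), as did Bcl2l1 (-0.31 ± 0.08 SE, adjusted p = 0.00155), while Bcl2 fell less there (0.88 ± 0.16 SE, adjusted p = 7.68e-05). Scaling moved the size of some of these differences. That of Mcl1 was 0.23 with quantile normalization and 0.24 with library totals, and library totals gave -0.57 for Bcl2l1 and -0.73 for Bcl2l11, all still called. The survival genes did not share one direction of difference. Bad differed by -0.58 ± 0.10 SE (adjusted p = 5.58e-05) and Bid by 0.44 ± 0.14 SE (adjusted p = 0.00803), and library totals ended the Bid call (0.18, adjusted p = 0.249). Bax and Bak1 did not pass, with 95% intervals of the difference from -0.17 to 0.12 and from -0.20 to 0.10. Library totals gave called differences of -0.29 for Bax and -0.31 for Bak1 (adjusted p = 0.00145 and 0.000602), and quantile normalization gave one of -0.22 for Bax (adjusted p = 0.0122).

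Between the populations at rest, DPP4_pos APCs held more Bcl2l11 and Bmf and less of most other members. Of the 9 members, 8 passed the test under vehicle, 2 higher and 6 lower in DPP4_pos APCs, beside 66.6% of all genes, 31.6% higher and 35.0% lower. The groups of 8 members did not overlap, beside 67.3% of all genes. The median log2 difference was -0.18 over the members and -0.01 over all genes tested. Bcl2l11 averaged 352 ± 20.4 normalized counts in DPP4_pos vehicle and 146 ± 7.21 in DPP4_neg vehicle libraries (SD, n = 4 each), a 2.39-fold higher level (log2 difference 1.26 ± 0.06 SE, limma adjusted p = 9.13e-14). Bmf averaged 586 ± 30.7 in DPP4_pos vehicle and 290 ± 23.2 in DPP4_neg vehicle libraries (2.02-fold higher, adjusted p = 1.33e-07).

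The effectors were lower in DPP4_pos vehicle libraries. Bak1 averaged 792 ± 58.0 in DPP4_pos vehicle and 1134 ± 31.2 in DPP4_neg vehicle libraries (log2 difference -0.52 ± 0.05 SE, limma adjusted p = 7.11e-09). Bax averaged 1341 ± 68.6 in DPP4_pos vehicle and 1769 ± 118 in DPP4_neg vehicle libraries (-0.40 ± 0.05 SE, adjusted p = 3.84e-07). Of the survival genes, Bcl2 was 1.60-fold lower in DPP4_pos vehicle libraries (log2 difference -0.68 ± 0.12 SE, adjusted p = 2.41e-05). The differences of Bcl2l1 (-0.18, adjusted p = 0.00581) and Mcl1 (-0.12, adjusted p = 0.00342) were small, and library totals ended both calls (adjusted p = 0.0576 and 0.155). Bid was 1.25-fold lower in DPP4_pos vehicle libraries (adjusted p = 0.00532), and Bad did not pass, with a log2 difference of 0.10 and a 95% interval from -0.05 to 0.25.

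Under isoproterenol Bcl2l11 and Mcl1 were higher in DPP4_pos APCs, and the effectors, Bcl2l1 and Bad were lower. Of the members, 6 of the 9 passed the test, 2 higher and 4 lower in DPP4_pos APCs, beside 74.4% of all genes, 37.4% higher and 37.0% lower. The groups of 6 members did not overlap, beside 63.9% of all genes. Library totals shifted the median of all genes by -0.19, and the share of calls that were higher was then 34.4% against 50.3% with size factors. Bcl2l11 stayed higher in DPP4_pos APCs (log2 difference 0.79 ± 0.06 SE, limma adjusted p = 2.28e-10). Mcl1, lower in DPP4_pos APCs under vehicle, averaged 4570 ± 99.6 in DPP4_pos isoproterenol and 3507 ± 125 in DPP4_neg isoproterenol libraries (0.38 ± 0.03 SE, adjusted p = 1.07e-09). That difference of Mcl1 was 0.13 with quantile normalization and 0.19 with library totals, both called (adjusted p = 0.00169 and 3.97e-05), and its lower level under vehicle was not called with library totals. Bak1 and Bax remained lower (-0.57 and -0.42, adjusted p = 1.31e-09 and 1.20e-07), and Bcl2l1 and Bad were lower by 1.41-fold and 1.39-fold (adjusted p = 4.94e-08 and 4.90e-06).

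For 3 members, Bcl2, Bid and Bmf, the difference under isoproterenol did not pass. Bmf averaged 38.4 ± 6.32 in DPP4_pos isoproterenol and 36.7 ± 5.53 in DPP4_neg isoproterenol libraries, with a 95% interval of the log2 difference from -0.19 to 0.31. Bcl2 averaged 77.4 in DPP4_pos isoproterenol and 66.6 in DPP4_neg isoproterenol libraries and the groups overlapped, with an interval from -0.03 to 0.45. Its difference was called after leaving out DPP4_pos isoproterenol replicate 2 (0.30, adjusted p = 0.0206) and after quantile normalization (0.38, adjusted p = 0.00558). Bid had an interval from -0.09 to 0.31, and quantile normalization gave a called difference of 0.23 (adjusted p = 0.0372).

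**Figure D3:**
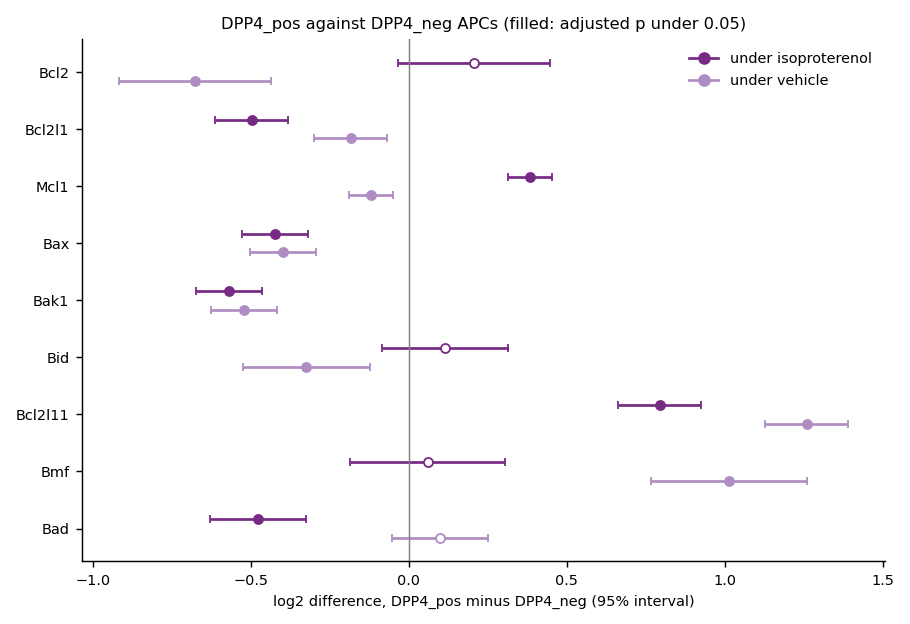
Log2 difference between DPP4_pos and DPP4_neg APCs for the 9 members, under isoproterenol and under vehicle, with bars for the 95% interval from limma. Bcl2l11 lay at 0.79 under isoproterenol and at 1.26 under vehicle, and Mcl1 at 0.38 under isoproterenol and at -0.12 under vehicle.

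Ratios within a library were taken for a few chosen pairs of members, describe those pairs only and carry no test. They do not stand for a balance between roles, since members of the same role moved in opposite directions. Bmf, the BH3-only gene with the largest response, is in none of the pairs and fell where Bcl2l11 rose. The ratio of Bcl2l11 to Bcl2l1, a BH3-only gene to a survival gene, averaged 1.53 (1.35 to 1.63) in DPP4_pos isoproterenol and 0.436 (0.378 to 0.460) in DPP4_pos vehicle libraries. It averaged 0.623 (0.576 to 0.720) in DPP4_neg isoproterenol and 0.159 (0.146 to 0.174) in DPP4_neg vehicle libraries. It was therefore higher after isoproterenol in every library of either population. The ratio of Bcl2l11 to Mcl1 behaved otherwise. It averaged 0.148 (0.137 to 0.155) in DPP4_pos isoproterenol and 0.172 (0.156 to 0.184) in DPP4_pos vehicle libraries, and 0.111 (0.103 to 0.121) in DPP4_neg isoproterenol and 0.0660 (0.0619 to 0.0693) in DPP4_neg vehicle libraries. It was lower after isoproterenol in DPP4_pos and higher in DPP4_neg APCs, with no overlap of the groups in either. The ratio of Bax to Bcl2 averaged 21.0 (17.0 to 26.8) in DPP4_pos isoproterenol and 10.2 (8.87 to 13.0) in DPP4_pos vehicle libraries, and 32.3 (29.4 to 37.1) in DPP4_neg isoproterenol and 8.31 (7.87 to 9.49) in DPP4_neg vehicle libraries. These ratios compare the same pair across groups, and transcript length makes their absolute size uninterpretable.

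**Figure D4:**
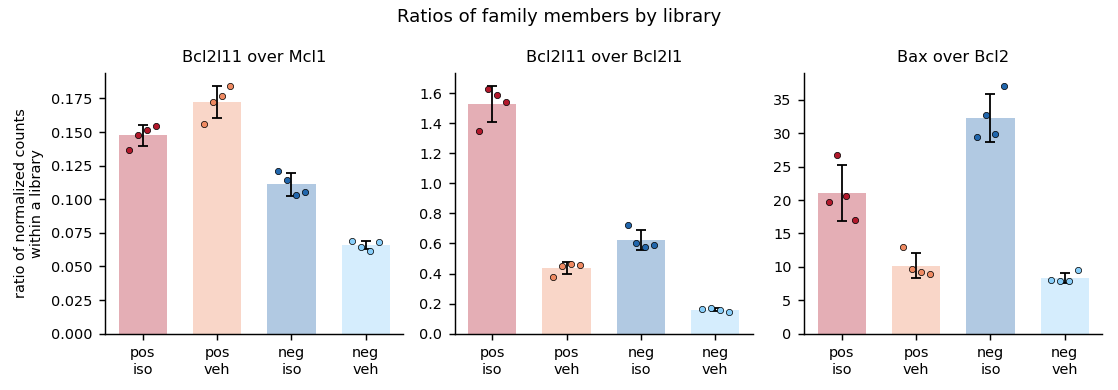
Within-library ratios of normalized counts for Bcl2l11 to Mcl1, Bcl2l11 to Bcl2l1 and Bax to Bcl2, with a point per library and bars for the mean with SD (n = 4 per group). The ratio of Bcl2l11 to Mcl1 was 0.137 to 0.155 in DPP4_pos isoproterenol against 0.156 to 0.184 in DPP4_pos vehicle libraries, while the other ratios were higher with isoproterenol in both populations.

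Levels of different members can be ordered only per length, here as mean normalized count per kb of annotated exons (GENCODE M21, since the authors' annotation is not given in the sources used here). In DPP4_pos isoproterenol the order was Mcl1 at 1337, Bax at 1010, Bak1 at 322, Bad at 119, Bcl2l1 at 96.6, Bcl2l11 at 84.0, Bid at 52.9, Bcl2 at 8.46 and Bmf at 7.31. In DPP4_pos vehicle it was Bax at 851, Mcl1 at 597, Bak1 at 329, Bcl2l1 at 176, Bad at 172, Bmf at 111, Bcl2l11 at 43.8, Bid at 42.0 and Bcl2 at 14.6. Bmf was thus sixth at rest in DPP4_pos APCs and last after isoproterenol. In DPP4_neg isoproterenol the order was Bax at 1355, Mcl1 at 1026, Bak1 at 478, Bad at 165, Bcl2l1 at 136, Bid at 48.7, Bcl2l11 at 48.5, Bcl2 at 7.28 and Bmf at 6.98. In DPP4_neg vehicle it was Bax at 1122, Mcl1 at 649, Bak1 at 471, Bcl2l1 at 201, Bad at 161, Bmf at 55.2, Bid at 52.7, Bcl2 at 23.3 and Bcl2l11 at 18.2. Neighbours whose libraries overlapped were Bcl2 and Bmf under isoproterenol in both populations, Bcl2l1 with Bad and Bcl2l11 with Bid in DPP4_pos vehicle, Bid with Bcl2l11 in DPP4_neg isoproterenol, and Bmf with Bid in DPP4_neg vehicle. With the longest coding transcript as length, Bax also exceeded Mcl1 in DPP4_pos isoproterenol (1835 against 1337), and Bid exceeded Bmf in DPP4_neg vehicle.

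The other genes of the family came from a list of 16, of which 9 were tested. With isoproterenol 3 were higher and 5 lower in DPP4_pos APCs, and 2 higher and 5 lower in DPP4_neg APCs, with a median log2 change of -0.19 and -0.17, against -0.05 and -0.02 over all genes tested. This count, 8 of 9 and 7 of 9, stands beside 82.7% and 65.7% of all genes called. Library totals gave 2 higher and 7 lower in DPP4_pos APCs. Bok, an effector-like relative of Bax, fell in both populations (log2 change -2.08 ± 0.10 SE in DPP4_pos and -2.10 ± 0.10 SE in DPP4_neg, limma adjusted p = 2.37e-14 and 5.19e-14). It was also lower in DPP4_pos APCs under vehicle, where it averaged 108 ± 6.34 normalized counts against 684 ± 12.2 in DPP4_neg vehicle libraries. Bbc3, which encodes the p53-induced BH3-only protein PUMA, fell 3.05-fold in DPP4_pos and 2.24-fold in DPP4_neg APCs (adjusted p = 2.35e-12 and 1.35e-09). Pmaip1, which encodes NOXA, the BH3-only partner of MCL1, rose 2.03-fold in DPP4_pos APCs (73.0 ± 16.4 in isoproterenol against 35.1 ± 6.06 in vehicle libraries, adjusted p = 6.25e-06). In DPP4_neg APCs it averaged 67.0 ± 5.95 in isoproterenol against 119 ± 13.5 in vehicle libraries, and its responses differed by 1.84 ± 0.23 SE (adjusted p = 5.02e-07). Bnip3, a hypoxia-induced mitophagy receptor, fell 1.80-fold in DPP4_neg APCs (adjusted p = 3.29e-11) and less in DPP4_pos APCs (log2 change -0.19, adjusted p = 0.00525). Bcl2l2, which encodes the survival protein BCL-W, rose 1.11-fold in DPP4_pos and 1.13-fold in DPP4_neg APCs (limma adjusted p = 0.000754 and 0.000296). In DPP4_pos APCs quantile normalization and library totals both called it lower (-0.09 and -0.12, adjusted p = 0.0238 and 0.00355). Over the list, the difference of responses was called higher for 2 and lower for 2, and library totals gave 2 and 5. The share over all genes was 31.6% higher and 31.0% lower. Relative to DPP4_neg APCs, 0 were higher and 5 lower in DPP4_pos APCs under isoproterenol, where library totals and quantile normalization each gave 0 and 8. Under vehicle 1 was higher and 5 lower, where library totals gave 2 and 4. Of all genes, 37.4% were higher and 37.0% lower under isoproterenol, and 31.6% and 35.0% under vehicle. Not tested for low counts were Bcl2l10, Bcl2a1a, Bcl2a1b, Bcl2a1d, Hrk, Bik and Bcl2l15, with at most 43 reads in all 16 libraries together.

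Downstream of the family, the list of 22 apoptosome, caspase and inhibitor genes was tested whole. With isoproterenol 8 were higher and 10 lower in DPP4_pos APCs, and 5 higher and 8 lower in DPP4_neg APCs, with a median log2 change of -0.10 and -0.06, against -0.05 and -0.02 over all genes tested. The 18 and 13 genes called are near the background of 82.7% and 65.7% of all genes. Library totals turned the DPP4_pos split to 5 higher and 14 lower. Cycs, the cytochrome c released through BAX and BAK pores, rose 2.92-fold in DPP4_pos and 1.57-fold in DPP4_neg APCs (limma adjusted p = 1.25e-16 and 1.23e-09). Birc3, an inhibitor of apoptosis protein, rose 2.35-fold in DPP4_pos and 1.40-fold in DPP4_neg APCs (adjusted p = 5.00e-16 and 1.10e-08). Inhibitors of this kind did not share one direction. Birc6 also rose (log2 change 0.84 in DPP4_pos and 0.23 in DPP4_neg APCs, adjusted p = 2.385e-10 and 0.00528). Birc2 fell (-0.999 and -0.34, adjusted p = 1.196e-10 and 0.000653). Birc5 and Xiap fell in DPP4_pos APCs (-0.48 and -0.43, adjusted p = 1.896e-07 and 1.987e-07) and did not pass in DPP4_neg APCs. Casp9, the initiator caspase of the apoptosome, fell 1.92-fold in DPP4_pos APCs (adjusted p = 2.35e-12) and less in DPP4_neg APCs (log2 change -0.32, adjusted p = 6.84e-05). Its responses differed by -0.62 ± 0.08 SE (adjusted p = 1.54e-06). The difference of responses was called higher for 10 of the 22 and lower for 8, where library totals gave 4 and 11 and quantile normalization 6 and 7. This stands beside 31.6% of all genes higher and 31.0% lower. Relative to DPP4_neg APCs, 6 were higher and 10 lower in DPP4_pos APCs under isoproterenol, where library totals gave 4 and 14. Under vehicle 7 were higher and 8 lower. Of all genes, 37.4% were higher and 37.0% lower under isoproterenol, and 31.6% and 35.0% under vehicle.

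Upstream, a list of 20 genes that control transcription or protein stability of the members was tested whole. With isoproterenol 15 were higher and 4 lower in DPP4_pos APCs, and 11 higher and 5 lower in DPP4_neg APCs, with a median log2 change of 0.60 and 0.28, against -0.05 and -0.02 over all genes tested. Of all genes, 39.4% were higher and 43.3% lower in DPP4_pos APCs, and 32.1% were higher and 33.6% lower in DPP4_neg APCs. Library totals and quantile normalization each gave 12 of the list higher and 5 lower in DPP4_pos APCs. Bag3, a co-chaperone known to stabilise BCL2 family proteins, rose 5.24-fold in DPP4_pos and 4.04-fold in DPP4_neg APCs (limma adjusted p = 2.87e-21 and 1.27e-19). Pim1, a kinase that phosphorylates BAD, rose 4.05-fold in DPP4_pos APCs (adjusted p = 1.31e-18), and its response was larger there by 1.70 ± 0.08 SE (adjusted p = 1.07e-13). Nfkb1, which encodes an NF-kappaB subunit, rose in both (log2 change 1.59 in DPP4_pos and 0.87 in DPP4_neg APCs, adjusted p = 4.58e-21 and 4.23e-16). Foxo1, a forkhead factor of the class known to act on Bcl2l11, fell 1.31-fold in DPP4_neg APCs (adjusted p = 8.39e-06). It did not pass in DPP4_pos APCs (log2 change -0.09, adjusted p = 0.169). Its level was higher in DPP4_pos than in DPP4_neg APCs under vehicle and under isoproterenol (log2 difference 0.46 and 0.75, adjusted p = 7.86e-07 and 2.54e-10). Jun, an AP-1 subunit, fell in DPP4_pos APCs (log2 change -0.79, adjusted p = 4.46e-13) and rose in DPP4_neg APCs (0.52, adjusted p = 1.42e-09), a difference of -1.31 ± 0.06 SE (adjusted p = 2.04e-13). The difference of responses was called higher for 16 of the 20 and lower for 3, where library totals gave 9 and 4 and quantile normalization 9 and 2. This stands beside 31.6% of all genes higher and 31.0% lower. Relative to DPP4_neg APCs, 15 were higher and 5 lower in DPP4_pos APCs under isoproterenol, and 5 higher and 10 lower under vehicle. Under isoproterenol library totals gave 11 and 5 and quantile normalization 13 and 6. Of all genes, 37.4% were higher and 37.0% lower under isoproterenol, and 31.6% and 35.0% under vehicle.

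Over the 16 libraries, genes whose log2 pattern was most like that of each member were ranked by Pearson r among 11400 genes, as a description shaped by the 4 shared groups. For Bcl2l11 these were Pi16 (r = 0.994), Rassf2 (0.993) and Irak3 (0.992), and Pi16 is itself a marker of the DPP4+ interstitial population. For Bmf they were Mmp11 (0.993), Serpina3g (0.993) and AW549877 (0.991). For Mcl1 they were Arntl (0.996), Metap1 (0.996) and Stx6 (0.995), and Arntl encodes the clock factor BMAL1. For Bcl2 they were Ralgapa2 (0.977), Amotl2 (0.974) and Flii (0.972), and for Bcl2l1 Papss2 (0.988), Brd9 (0.987) and Klhl5 (0.985). The effectors had Mfge8 (0.978), S100a4 (0.978) and Kdelr3 (0.977) for Bak1, and H2afj (0.983), Sec61g (0.982) and Rps4x (0.979) for Bax. Bad had Ddah2 (0.947), Zfyve21 (0.929) and Cd81 (0.929), and Bid had Pdhx (0.857), Nup35 (0.803) and Hprt (0.802), the weakest likeness of the 9. Among the members themselves, Mcl1 and Bmf ran most opposite to each other (r = -0.94), and Mcl1 and Bcl2l1 nearly as much (r = -0.94).

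The members lie apart in the genome, on GRCm38.p6 by RefSeq. Bcl2l11 (Entrez 12125) is at chr2:128126038-128162547 on the plus strand, Bmf (171543) at chr2:118528757-118549686 on the minus strand and Bcl2l1 (12048) at chr2:152758732-152833803 on the minus strand. Mcl1 (17210) is at chr3:95656944-95663179 on the plus strand, Bcl2 (12043) at chr1:106538176-106714290 on the minus strand and Bax (12028) at chr7:45461695-45466903 on the minus strand. Bak1 (12018) is at chr17:27019812-27028627 on the minus strand, Bid (12122) at chr6:120893119-120917062 on the minus strand and Bad (12015) at chr19:6941861-6951905 on the plus strand. The 3 members on chromosome 2 did not move together, since Bcl2l11 rose and Bmf and Bcl2l1 fell. A search of the annotated transcripts for near-identical copies, at 95% identity over 200 bases, found no gene other than the overlapping neighbours of the members.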

How the data were processed

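RNA was measured by bulk RNA-seq in 16 libraries, each from 500 ng of total RNA. Per the submitters' processing notes, the tools were DESeq2 1.6.3, featureCounts 1.4.6, HISAT2 2.0.1 and Trim Galore 0.4.1, and the genome build was GRCm38 (mm10). The annotation, the settings and the handling of strand were not given in these sources. The authors deposited a normalized signal per gene, that is, reads scaled by a size factor per library, as the header and the values show. Dividing by the step of each library gave whole reads for 100.0% of 280334 values above 0, within 0.001, so counts could be recovered for count tests. Of 27179 entries, 4224 were at 0 throughout and 958 had no symbol (0.093% of the signal). For 26 genes whose symbol read as a date, the symbol was restored by Entrez identifier. Genes with a normalized count of at least 10 in at least 4 libraries were tested.

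The test was limma 3.58.1 with a mean-variance trend (R 4.3.3). It was applied to log2(normalized count + 1), with 4 group means estimated jointly from the 16 libraries, and p-values were adjusted by Benjamini-Hochberg over all genes tested. Calls needed an adjusted p below 0.05. The fold changes follow from that log2 scale, on which changes of weakly expressed genes come out too small. The members and lists were chosen with earlier results of these data known. Of each list, up to 3 called genes per direction and comparison with a mean of at least 50 and the largest change could be named, and a selection of these is given, with some genes not reported here. The same floor of 50 held for genes ranked by likeness. Alternatives were edgeR 4.0.16 and DESeq2 1.42.0 on the recovered reads, other pseudocounts and filters, quantile normalization, only the 2 groups compared, a replicate block, leaving out each library, and library totals. Near-identical copies were sought with BLAST+ 2.17.0. The code was checked on simulated data.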

Additional observations from a re-analysis of the deposited data

Results flagged for a closer look

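In 6 of 36 groups of 4 libraries, 1 library of a member stood apart from the other 3, by Dixon's 95% critical value for the gap over the range, which chance alone exceeds in about 1 in 20 groups. For Bcl2 these were DPP4_pos vehicle replicate 1 at 109 normalized counts, below the others at 139 to 144, and DPP4_neg vehicle replicate 4 at 205, below the others at 216. For Bcl2l11 it was DPP4_neg vehicle replicate 3 at 136, below the others at 149 to 151. For Bax it was DPP4_neg vehicle replicate 4 at 1946, for Bak1 DPP4_pos vehicle replicate 3 at 705, and for Bid DPP4_neg isoproterenol replicate 4 at 152. No call of these genes was lost when the library was left out.

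For 7 members the response to isoproterenol differed between the populations by the test of the difference itself, which 62.6% of all genes tested also passed. The DPP4_pos log2 response minus the DPP4_neg log2 response was 0.88 for Bcl2, 0.50 for Mcl1, 0.44 for Bid, -0.31 for Bcl2l1, -0.47 for Bcl2l11, -0.58 for Bad and -0.95 for Bmf. Of these, Bid is the 1 whose call ended when libraries were scaled to their totals.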

How the results depend on the processing

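The total numbers of members and of genes called stayed within 1.5 times of the reported ones under all alternatives run, but 4 counts split by direction did not. Members higher with isoproterenol in DPP4_pos APCs were 2 with library totals against 4, and members higher in DPP4_pos APCs under isoproterenol were 4 with quantile normalization against 2. For the difference of responses, library totals called 2557 genes higher and 6826 lower, against 4423 and 4342. Of 720 member values with 1 library left out, 713 kept direction and side of the threshold, and members called ran from 6 to 7 for DPP4_pos against DPP4_neg under isoproterenol and were constant elsewhere. Of 441 values under the other settings, 423 did. Of the reversed values only Bax in DPP4_pos APCs was a call in the reported fit, with log2 changes of -0.0046 (quantile normalization) and -0.026 (library totals). The cause was not tested. The other reversals were of values that had not passed. In DPP4_neg APCs, quantile normalization gave -0.026 for Bak1 and 0.0062 for Bid. Leaving out 1 library gave -0.0083 (DPP4_neg isoproterenol replicate 2) to 0.048 for Bak1 and -0.022 (DPP4_neg vehicle replicate 1) to 0.083 for Bad. The difference of responses of Bax ran from -0.072 to 0.0023, and was above 0 without DPP4_neg isoproterenol replicate 2 or DPP4_pos vehicle replicate 1. Between populations under isoproterenol, Bmf gave -0.015 in edgeR, -0.13 with library totals and -0.0075 (without DPP4_neg isoproterenol replicate 3) to 0.18 with 1 library left out, and Bid gave -0.081 with library totals. On the recovered reads, edgeR called 11581 genes in DPP4_pos and 9543 in DPP4_neg APCs, where limma called 11581 and 9199. The replicate block changed 0 of 45 member calls, with 8 members called in DPP4_pos and 6 in DPP4_neg APCs as without it. Deviations of same-numbered libraries correlated at -0.058 to 0.212, and some libraries but not all correlated best with their own number. These correlations do not settle whether same-numbered libraries came from the same animal or culture, which no label says. Depth limits Bmf most, with 20 reads in its lowest libraries.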
